A study of Mus musculus with 12 samples.

Results

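The Hox genes were the 30 rows of the deposited gene table whose symbol was Hox, a cluster letter from a to d and a number, out of 28999 genes in all. They were chosen by name, with no use of the measured values. The table came from RNA sequencing of 12 libraries made from mouse bone marrow, whose cells are labelled LT-HSCs (long-term haematopoietic stem cells), which renew blood formation throughout life. The 4 groups, with 3 libraries each, combined 2 genotypes, wild type (WT) and Trim47-/-, with no treatment or with 5-fluorouracil (5-FU). In both 5-FU groups the labels give 10 days, and no other allele or agent and no strain or age is stated for any group. Trim47 belongs to the tripartite-motif family of ubiquitin ligases, and 5-FU is a drug that kills dividing cells and so forces stem cells to rebuild the blood. The sources used here do not give the part of Trim47 that was deleted, the tissues that lack it or the surface markers used to sort the cells. The comparisons ask how the Hox genes differed with genotype at rest and after the drug, and how they responded to the drug in each genotype.

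Hox genes encode homeodomain transcription factors that set position along the body axis. They lie in 4 clusters, in each of which the gene order follows the order of use from the head (low numbers) to the tail (high numbers). In blood the clusters are used differently. The Hoxa genes up to Hoxa10 and several Hoxb genes are active in stem and early progenitor cells and are shut off as cells mature. Forced Hoxb4 or Hoxa9 expands stem cells, and Hoxa9 with its partner Meis1 drives leukaemia. MLL (Kmt2a) complexes keep the clusters active and Polycomb complexes silence them. HOX proteins bind DNA together with PBX and MEIS proteins of the TALE homeodomain class.

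Total counts per library ran from 13919649 to 20703198, with no overlap between the ranges of any groups, and untreated Trim47-/- was the deepest. Levels are given as CPM, read counts scaled to library size with edgeR's TMM factors, and 1 CPM stood for 13.8 to 20.5 reads. The Trim47 check did not bear out the label of the untreated Trim47-/- libraries. Trim47 stood at 24.6, 23.8 and 24.7 CPM in untreated wild type and at 23.7, 18.9 and 16.6 CPM in the untreated libraries labelled Trim47-/-, a difference that did not pass the test (log2 -0.31, SE 0.115, adjusted p = 0.0632). After 5-FU it stood at 38.1, 33.3 and 34.7 CPM in wild type against 10.1, 12.2 and 11.6 CPM (log2 -1.64, SE 0.121, adjusted p = 5.50e-07). Because the deleted part is not known, remaining reads neither establish nor exclude a loss of function, and the libraries are called by their label throughout. No label names separate animals, so each p-value reflects the spread between libraries alone, and this may be technical. Between libraries of a group, 11.7% to 13.1% of genes with enough reads varied beyond the limit that counting noise exceeds in 1% of genes. Among the Hox genes these were Hoxa9 in untreated Trim47-/- and Hoxa7 and Hoxb5 in Trim47-/- after 5-FU. All 11 genes of the LT-HSC marker list were detected, and their summed level was 981 to 1080 CPM in untreated wild type, 1140 to 1250 CPM in untreated Trim47-/-, 985 to 1140 CPM in wild type after 5-FU and 588 to 668 CPM in Trim47-/- after 5-FU. Their levels were unequal, with means in untreated wild type of 1.89 CPM for Slamf1 and 466 CPM for Kit. In the same libraries Flt3, of the dendritic cell list, averaged 711 CPM and Mpo, of the neutrophil list, 1900 CPM. How pure the sorted cells were was not tested.

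Of the 30 Hox genes, 16 had enough reads to be tested, and all of them belonged to 2 clusters. The Hoxa cluster on chromosome 6 (52155590 to 52245810 of GRCm38, minus strand) held 88.1% of the 34542 Hox reads, and 9 of its 10 genes were tested. The Hoxb cluster on chromosome 11 (96271457 to 96368256, plus strand) held 11.7% of Hox reads, and 7 of its 9 genes were tested. It lies 19.7 Mb from Trim47 on the same chromosome. No gene of the Hoxc cluster on chromosome 15 (102966796 to 103036852, 5 genes) or the Hoxd cluster on chromosome 2 (74668310 to 74765142, 6 genes) was tested. These clusters held 0.122% and 0.113% of Hox reads.

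The untested genes were Hoxa11, Hoxb1, Hoxb7, Hoxc4, Hoxc5, Hoxc6, Hoxc9, Hoxc10, Hoxd1, Hoxd3, Hoxd4, Hoxd10, Hoxd11 and Hoxd13. None had more than 4 reads in any library. A count of 0 allows up to 3 reads, which is 0.147 to 0.218 CPM here, so that low levels of these genes were not detectable at this depth. Such limits cover counting error only. Hoxa11 had reads in 1 library, and Hoxb7, with 7 libraries, and Hoxc6, also with 7, had reads in the most. Another 9 Hox genes of the GENCODE M21 annotation (Hoxa13, Hoxb13, Hoxc8, Hoxc11, Hoxc12, Hoxc13, Hoxd8, Hoxd9 and Hoxd12) had no row of that name in the deposited gene table. They could therefore not be analysed here.

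Hoxb6, Hoxb8 and Hoxb9 were near the limit of the test. The filter asked for about 0.667 CPM in at least 3 libraries, the size of a group, whichever groups they came from. Hoxb6 and Hoxb8 reached it in all 3 libraries only of wild type after 5-FU, the group in which they were high. Hoxb9 reached it in all 3 libraries of no group, and entered through 2 libraries of wild type and 1 of Trim47-/-, all after 5-FU. The 12 better expressed genes, with means above 1 CPM, reached it in all 12 libraries. Because Hoxb6 and Hoxb8 could enter the test only by being high in wild type after 5-FU, their differences from that group were favoured by the filter. Counts over the 12 better expressed genes are therefore given first in the comparisons with that group, and the values of Hoxb6 and Hoxb8 there are a description.

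The sequences just before the start sites of 4 tested genes are shown, because they are unlike although the genes lie in only 2 clusters. Hoxa5 and Hoxa9 are the best expressed members per length with Hoxa7, Hoxb4 is the leading Hoxb gene, and Hoxb8 is the other tested Hoxb gene matched to a RefSeq window. Each is the 250 bases before the RefSeq start on GRCm38.p6, read 5′ to 3′ on the gene's strand. Hoxa5 is chr6:52204588-52204837 on the minus strand, Hoxa9 is chr6:52227371-52227620 on the minus strand, Hoxb4 is chr11:96318017-96318266 on the plus strand and Hoxb8 is chr11:96281655-96281904 on the plus strand. The Hoxa9 window lies within the longer GENCODE span of that gene. Capitals mark matches to a motif.
Hoxa5: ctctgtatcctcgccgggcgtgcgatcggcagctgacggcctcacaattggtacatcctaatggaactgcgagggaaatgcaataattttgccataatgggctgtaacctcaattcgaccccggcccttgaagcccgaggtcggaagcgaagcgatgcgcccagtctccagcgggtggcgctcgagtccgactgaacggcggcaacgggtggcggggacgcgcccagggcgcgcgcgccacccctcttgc
Hoxa9: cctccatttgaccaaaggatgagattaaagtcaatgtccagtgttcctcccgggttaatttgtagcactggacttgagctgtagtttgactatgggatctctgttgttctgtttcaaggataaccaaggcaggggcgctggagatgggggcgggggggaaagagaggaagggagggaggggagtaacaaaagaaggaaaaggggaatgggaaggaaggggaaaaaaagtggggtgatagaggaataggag
Hoxb4: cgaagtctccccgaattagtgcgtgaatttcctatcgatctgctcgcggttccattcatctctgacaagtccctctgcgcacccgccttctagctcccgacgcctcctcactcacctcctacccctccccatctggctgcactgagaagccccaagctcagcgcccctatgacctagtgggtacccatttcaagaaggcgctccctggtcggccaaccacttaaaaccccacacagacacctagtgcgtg
Hoxb8: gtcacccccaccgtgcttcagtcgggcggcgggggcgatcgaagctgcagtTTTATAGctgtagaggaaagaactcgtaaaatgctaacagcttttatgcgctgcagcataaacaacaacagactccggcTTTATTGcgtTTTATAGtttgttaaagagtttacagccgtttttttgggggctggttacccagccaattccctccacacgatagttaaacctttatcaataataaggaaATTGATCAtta

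The 4 sequences differ in base composition. Hoxa5 holds 28 CpG and 63.6% G and C, Hoxb4 holds 14 CpG, Hoxb8 holds 12 CpG with 44.4% G and C, and Hoxa9 holds 3 CpG. Over 10 such RefSeq windows of tested Hox genes the median was 13 CpG, against 6 over 32851 windows of all genes. Motifs were searched on both strands. The HOX-PBX composite TGATNNAT occurs in Hoxb8 on the opposite strand, 11 bases before the start, and in 7.7% of all windows. The CDX motif TTTATNG occurs in Hoxb8 at 199, 120 and 110 bases before the start and in 9.8% of all windows. The CCAAT box CCAATNNG, present in 12.7% of all windows, has no match in these 4. TATAAA, present in 12.4% of all windows, was marked on the gene's own strand only and has no such match here, though on the opposite strand it overlaps the CDX matches at 199 and 110. The HOX-PBX match overlaps none of the others. A match of letters does not show that a protein binds there.

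Compared between genes per length of exon, 3 Hoxa genes stood above the rest. In untreated wild type Hoxa7 was at 11.5 CPM per kilobase of GENCODE M21 exon, Hoxa9 at 11.3 and Hoxa5 at 10.7, with overlapping ranges of libraries between neighbours. They were followed by Hoxa6 at 4.75, Hoxa10 at 3.31, Hoxa2 at 1.96 and Hoxb4 at 1.95, the highest Hoxb gene, on the same scale. The ranges of Hoxa2 and Hoxb4 overlapped, and those of Hoxa5, Hoxa6 and Hoxa10 did not. In Trim47-/- after 5-FU, Hoxa7 stood apart at 13.4 CPM per kilobase, with Hoxa5 at 7.57 and Hoxa9 at 7.1 next and overlapping each other. In untreated Trim47-/- the order was Hoxa5 at 16, Hoxa9 at 15.4 and Hoxa7 at 12.6 CPM per kilobase, with only Hoxa7 apart. The order thus differed between groups, and within untreated wild type it differed with the length used. By the FPKM values of the table, which rest on a length of 5552 bases for Hoxa7 where the annotation gives 2876 exon bases, untreated wild type ran Hoxa5 (10.4 FPKM), Hoxa9 (8.4 FPKM) and Hoxa7 (5.81 FPKM).

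Summed over a cluster, the 4 groups fell in different orders in Hoxa and Hoxb. The Hoxa sum was 146, 145 and 140 CPM in untreated wild type, 189, 188 and 196 in untreated Trim47-/-, 170, 166 and 157 in wild type after 5-FU and 120, 113 and 110 in Trim47-/- after 5-FU. No groups overlapped, with untreated Trim47-/- highest and Trim47-/- after 5-FU lowest. The Hoxb sum was 13.5, 13.5 and 12.9 CPM in untreated wild type, 19.9, 18.7 and 20.5 in untreated Trim47-/-, 32.3, 34.2 and 33.5 in wild type after 5-FU and 16.3, 16.4 and 16 in Trim47-/- after 5-FU. Here too no groups overlapped, but wild type after 5-FU was highest and untreated wild type lowest. As ratios of means, Trim47-/- stood at 1.33 times wild type for Hoxa and 1.48 times for Hoxb when untreated, and at 0.695 and 0.486 after 5-FU. The ratio of 5-FU to untreated in wild type was 1.14 for Hoxa and 2.5 for Hoxb, and in Trim47-/- it was 0.597 and 0.822. Hoxb thus took 8.43% ± 0.0648 of Hox reads in untreated wild type and 16.9% ± 0.808 in wild type after 5-FU (SD, n = 3 each), and 9.33% ± 0.266 and 12.5% ± 0.416 in Trim47-/-. The Hoxc and Hoxd sums stayed below 1 CPM in every library, with 0 to 11 reads.

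**Figure D1:**
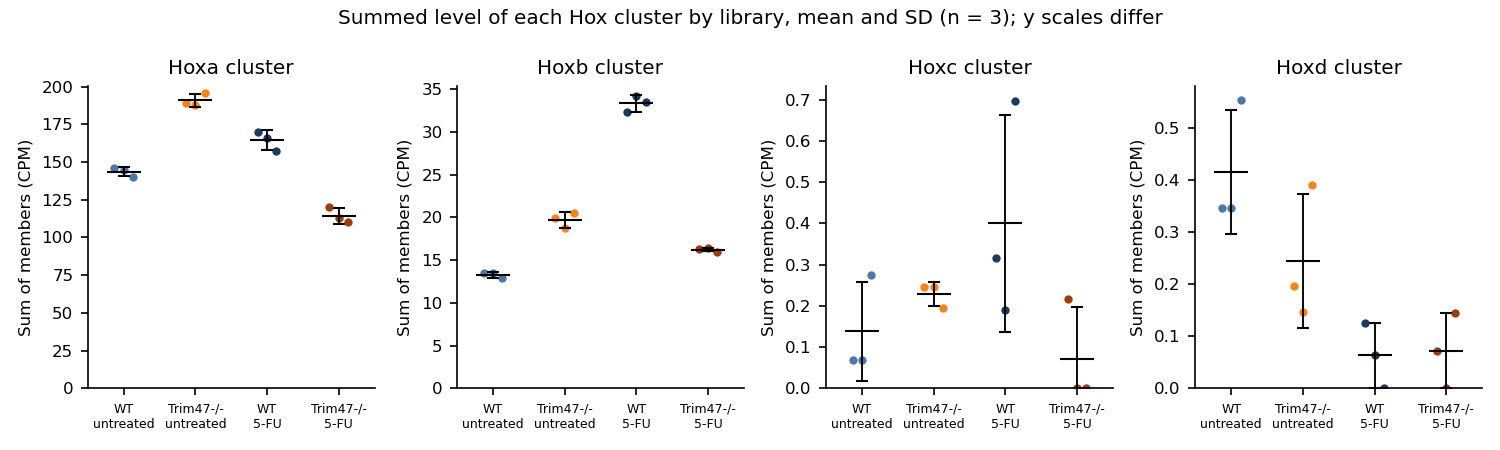
Summed level of each Hox cluster (y axis, CPM, a separate scale per panel) in each library (points) of the 4 groups, with the mean and SD (n = 3). Hoxa was highest in untreated Trim47-/- (mean 191 CPM) and Hoxb in wild type after 5-FU (mean 33.3 CPM), while Hoxc and Hoxd stayed below 1 CPM.

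Among the anterior Hoxa genes, Hoxa3, a factor of thymus and neck development, changed most. Hoxa3 (52169062 to 52213336) stood at 6.92, 6.44 and 6.91 CPM in untreated wild type and 11.3, 10.1 and 10.5 CPM in untreated Trim47-/-. With 5-FU it was at 10.5, 8.67 and 8.73 CPM in wild type and 3.83, 4.13 and 4.42 CPM in Trim47-/-. Its lowest group was Trim47-/- after 5-FU and no library there reached the lowest of any other group. Hoxa3 spans several of its neighbours and shares 25.4% of its exon bases with antisense transcripts, among them Hoxaas2 and Hoxaas3, and 8% with Gm28308 on its own strand. The sources used here do not say whether reads were counted by strand, and those of overlapping genes may not be told apart. Hoxa2, a hindbrain and jaw patterning gene, stood at 3.53, 3.26 and 3.66 CPM in untreated wild type and 3.24, 3.04 and 3.91 CPM in untreated Trim47-/-. In the 5-FU groups it was at 3.28, 4.17 and 3.04 CPM in wild type and 1.81, 1.74 and 2.25 CPM in Trim47-/-. Only the last group lay apart from the other 3. Hoxa2 shares 15% of its exon bases with Gm28308. Hoxa4 was at 1.17 to 2.03 CPM over the 12 libraries and did not pass in any comparison.

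The central Hoxa genes lie side by side and did not behave alike. Hoxa5 (52201754 to 52204587), which acts in lung and blood cell development, stood at 19.3, 20.6 and 20.1 CPM in untreated wild type and 30.3, 30.8 and 29.2 CPM in untreated Trim47-/-. After the drug its level was 23.2, 22.5 and 22.3 CPM in wild type and 13.7, 15.6 and 13.3 CPM in Trim47-/-. The 4 groups did not overlap. Hoxa6 (52206288 to 52208722) stood at 4.15, 3.67 and 4.63 CPM in untreated wild type and 6.13, 6.24 and 6.26 CPM in untreated Trim47-/-. Following 5-FU it was at 5.18, 4.87 and 6.01 CPM in wild type and 3.76, 3.33 and 3.55 CPM in Trim47-/-. Its order of groups was that of Hoxa5, with an overlap between untreated wild type and Trim47-/- after 5-FU. Hoxa7 (52214491 to 52221854), a target of MLL complexes, stood at 35.4, 33.5 and 30.4 CPM in untreated wild type and 35.5, 35.6 and 37.7 CPM in untreated Trim47-/-. After 5-FU its level was 39.7, 44.1 and 37.8 CPM in wild type and 43.8, 35.9 and 35.5 CPM in Trim47-/-. Its groups lay close together, and both 5-FU groups overlapped. Hoxa7 shares 20.4% of its exon bases with the antisense gene Hoxaas3, itself at group means of 0.717 to 1.11 CPM.

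Of the posterior Hoxa genes, Hoxa9 (52223100 to 52231089), a regulator of stem cell renewal, had the most reads of all Hox genes. It stood at 63.9, 64.4 and 61.2 CPM in untreated wild type and 83.5, 82.8 and 91.5 CPM in untreated Trim47-/-. After 5-FU it stood at 71.7, 66.3 and 63.7 CPM in wild type and 41.2, 40 and 37.6 CPM in Trim47-/-. Untreated Trim47-/- was highest and Trim47-/- after 5-FU lowest without overlap, while the wild-type groups overlapped. Hoxa10 (52231197 to 52240854), which also acts in early blood cells, stood at 10.6, 11 and 10.9 CPM in untreated wild type and 16.7, 17.3 and 15.7 CPM in untreated Trim47-/-. With 5-FU it was at 13.6, 12.7 and 12.1 CPM in wild type and 9.17, 10.4 and 10.8 CPM in Trim47-/-. The untreated Trim47-/- libraries were all above the rest, and wild type after 5-FU lay above both remaining groups, whose ranges overlapped.

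In the Hoxb cluster, Hoxb4 (96318267 to 96321638), known for expanding stem cells when forced, stood at 4.91, 5.2 and 4.91 CPM in untreated wild type and 7.4, 7.32 and 6.21 CPM in untreated Trim47-/-. In the 5-FU groups it was at 9.79, 11.4 and 9.55 CPM in wild type and 7.51, 7.03 and 7.98 CPM in Trim47-/-. Wild type after 5-FU was highest, untreated wild type lowest, and both Trim47-/- groups overlapped between them. Hoxb3 (96323326 to 96347930), its neighbour and partner in blood progenitors, stood at 3.6, 5.27 and 4.7 CPM in untreated wild type and 7.6, 6.92 and 7.58 CPM in untreated Trim47-/-. After the drug its level was 10.8, 10.4 and 11.8 CPM in wild type and 3.54, 3.69 and 1.96 CPM in Trim47-/-. It thus differed from Hoxb4 in Trim47-/- after 5-FU, where Hoxb3 lay below or at the low end of its untreated wild-type range and Hoxb4 above that range. Hoxb3 shares 52.9% of its exon bases with the antisense gene Hoxb3os, and Hoxb2 shares 27.3% with it, while Hoxb4 shares none with any gene.

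Hoxb2 (96350525 to 96354012), a hindbrain gene, stood at 2.42, 1.25 and 1.31 CPM in untreated wild type and 2.11, 1.67 and 2.44 CPM in untreated Trim47-/-. Following 5-FU it was at 5.43, 5.19 and 5.44 CPM in wild type and 3.11, 2.75 and 2.47 CPM in Trim47-/-. The untreated groups overlapped, and wild type after 5-FU lay above all other libraries. Hoxb5 (96303336 to 96306121), whose reporter marks mouse LT-HSCs, stood at 1.31, 0.901 and 0.898 CPM in untreated wild type and 1.52, 1.42 and 2.3 CPM in untreated Trim47-/-. After 5-FU its level was 3.35, 4.05 and 3.23 CPM in wild type and 0.722, 1.81 and 2.32 CPM in Trim47-/-, where the libraries differed beyond counting noise. Wild type after 5-FU again lay above all others. At lower levels, Hoxb8, used to hold progenitors in an immature state, had group means of 0.208, 0.425, 1.16 and 0.338 CPM and Hoxb6 of 0.369, 0.686, 0.927 and 0.314 CPM, giving untreated wild type and Trim47-/- first and the 5-FU groups of each next. Hoxb9, the most posterior tested member of its cluster, ranged from 0.147 to 0.949 CPM.

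**Figure D2:**
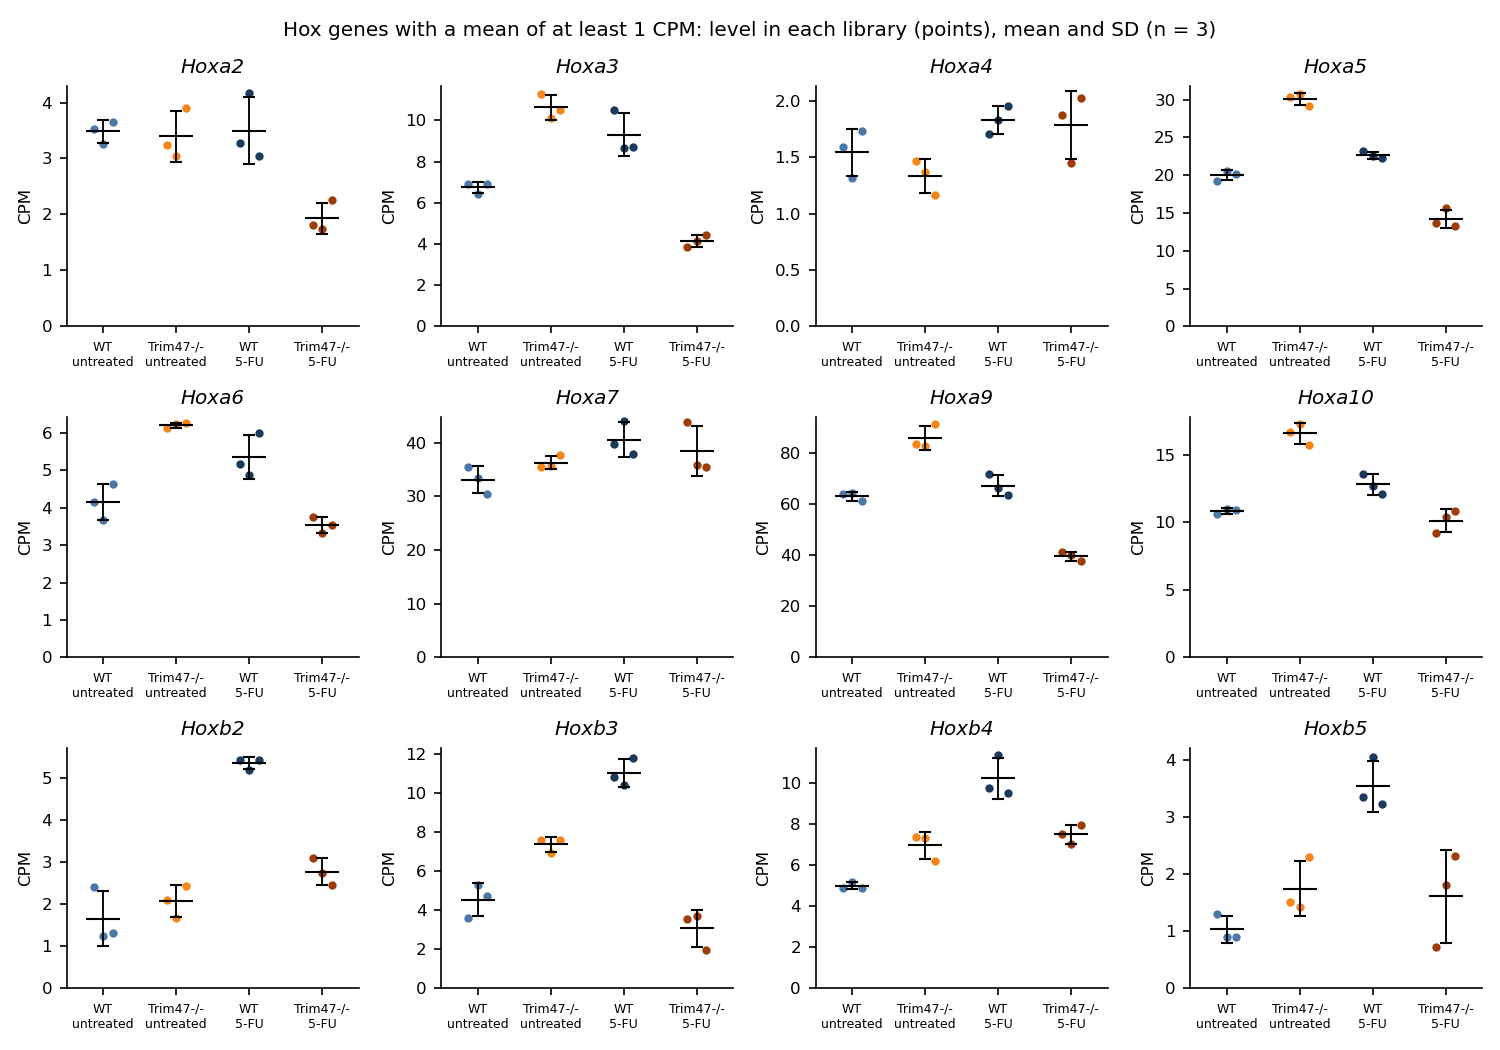
Level (y axis, CPM, from 0, a separate scale per gene) of the 12 better expressed Hox genes (mean 1 CPM or more) in each library (points) of the 4 groups, with the mean and SD (n = 3). Hoxa5, Hoxa9 and Hoxa10 peaked in untreated Trim47-/-, the 4 Hoxb genes peaked in wild type after 5-FU, and Hoxa7 was at 30.4 to 44.1 CPM in all 12 libraries.

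When untreated, 7 of 16 Hox genes were higher in Trim47-/- and none lower. They were Hoxa3, Hoxa5, Hoxa6, Hoxa9 and Hoxa10 of the Hoxa cluster and Hoxb3 and Hoxb4 of the Hoxb cluster, with rises of 1.36 to 1.63 times. Hoxb3 rose most (log2 0.70, SE 0.18, adjusted p = 0.0113), followed by Hoxa3 (log2 0.65, SE 0.0945, adjusted p = 0.000336), Hoxa10 (log2 0.61, SE 0.075, adjusted p = 9.48e-05) and Hoxa5 (log2 0.59, SE 0.0612, adjusted p = 2.71e-05). Hoxa6 rose by log2 0.58, Hoxb4 by 0.48 and Hoxa9 by 0.44. These and all p-values below are from edgeR's quasi-likelihood test, adjusted by Benjamini-Hochberg over all 16319 genes tested. Of all genes, 17.6% were higher and 15.4% lower in this comparison. The median log2 difference was 0.53 over the Hox genes and 0.03 over all genes. Among the 12 better expressed Hox genes the count was again 7. Hoxa7 stood at log2 0.13 (adjusted p = 0.3), Hoxa2 at -0.04, and Hoxb5, Hoxb6 and Hoxb8 at 0.75, 0.88 and 1.01 without passing. No Hox gene passed with a 2-fold change, against 0.741% of all genes that were higher by as much. In 9 Hox genes all Trim47-/- libraries lay above all wild-type libraries and in 1, Hoxb9, below, against 26.3% and 21.6% of all genes.

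After 5-FU the direction was the opposite. Of the 12 better expressed Hox genes 10 were lower in Trim47-/- and none higher, and of all 16 tested 12 were lower, Hoxb6 and Hoxb8 included. Of all genes, 27.6% were lower and 27.2% higher. Hoxb3 was at 0.28 of its wild-type level (log2 -1.84, SE 0.189, adjusted p = 8.25e-06). Hoxa3 was at 0.444 (log2 -1.17, SE 0.103, adjusted p = 2.24e-06) and Hoxb5 at 0.458 (log2 -1.13, SE 0.306, adjusted p = 0.00869). These 3 of the 12 passed a 2-fold threshold as well, against 5.41% of all genes. Hoxb8 stood at log2 -1.76 and Hoxb6 at -1.54, the filter favouring such values, and with them 5 of 16 passed it. Hoxb2 was lower by log2 -0.95, Hoxa2 by -0.86, Hoxa9 by -0.76, Hoxa5 by -0.67, Hoxa6 by -0.59, Hoxb4 by -0.45 and Hoxa10 by -0.34. Hoxa7 (log2 -0.08, SE 0.0894, adjusted p = 0.491), Hoxa4 (-0.04) and Hoxb9 (-0.68) did not pass. The median log2 difference was -0.72 over the 12 better expressed Hox genes, -0.81 over all 16 and -0.00 over all genes. In 10 of the 12 all Trim47-/- libraries lay below all wild-type libraries and in 0 above, against 30.7% and 30.5% of all genes. In RNA from a bulk sample, fewer cells that express Hox genes and less Hox RNA per cell cannot be told apart.

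In wild type, 9 of the 12 better expressed Hox genes were higher after 5-FU and none lower, and of all 16 tested 11 were higher, Hoxb6 and Hoxb8 included. The sizes differed by cluster. All 4 of the better expressed Hoxb genes rose by more than 2-fold, against 2.86% of all genes. Hoxb5 rose 3.39 times (log2 1.76, SE 0.33, adjusted p = 0.000909), and Hoxb2 3.21 times (log2 1.68, SE 0.212, adjusted p = 4.69e-05). Hoxb3 rose 2.43 times (log2 1.28, SE 0.178, adjusted p = 0.000105) and Hoxb4 2.05 times (log2 1.03, SE 0.103, adjusted p = 7.10e-06). Hoxb8 stood at log2 2.44 and Hoxb6 at 1.31, in the direction that the filter favoured. The 5 Hoxa genes that rose did so by less, with Hoxa3 at 1.38 times (log2 0.46, adjusted p = 0.0019), Hoxa6 at 1.29, Hoxa7 at 1.22, Hoxa10 at 1.18 and Hoxa5 at 1.13 times. Of all genes, 25.2% were higher and 25.4% lower. In 9 of the 12 all 5-FU libraries lay above all untreated libraries and in 0 below, against 29.7% and 29.2% of all genes. The median log2 difference was 1.48 over the 4 better expressed Hoxb genes, 0.24 over the 8 Hoxa genes and 0.01 over all genes. Hoxa9 stood at log2 0.09 (adjusted p = 0.203) and Hoxa2 at 0.01, and the sign of Hoxa2 turned with DESeq2's size factors (log2 -0.00). The Hoxa calls were the least stable. Hoxa5, Hoxa6 and Hoxa10 did not pass in DESeq2's test (adjusted p = 0.11, 0.103 and 0.0969). Hoxa5 also failed without any 1 of untreated wild-type replicates 1 and 3 or of the 3 wild-type 5-FU replicates (adjusted p = 0.053 to 0.106). Hoxa10 failed without replicate 1 of either group (adjusted p = 0.0636 and 0.0856), Hoxa6 without untreated replicate 2 (0.121) or 5-FU replicate 3 (0.143) and in a fit of only the 6 libraries compared (0.0578), and Hoxa7 without untreated replicate 3 (0.0751) or 5-FU replicate 2 (0.0735).

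In Trim47-/-, 8 of 16 Hox genes were lower after 5-FU and none higher, and 7 of the 12 better expressed ones were lower. Among them were 6 of 9 Hoxa genes. Hoxa3 was at 0.39 of its untreated level (log2 -1.36, SE 0.101, adjusted p = 3.76e-07), Hoxa9 at 0.461 (log2 -1.12, SE 0.0561, adjusted p = 1.48e-08) and Hoxa5 at 0.473 (log2 -1.08, SE 0.063, adjusted p = 4.87e-08). Hoxa2 and Hoxa6 were lower by log2 -0.81 each and Hoxa10 by -0.71. In the Hoxb cluster, Hoxb3 was lower (log2 -1.26, SE 0.192, adjusted p = 0.000141), as was Hoxb6 (log2 -1.11, SE 0.387, adjusted p = 0.0273). The Hoxb6 call was lost in DESeq2's test (adjusted p = 0.0954), without untreated Trim47-/- replicate 3 (0.17) and without Trim47-/- 5-FU replicate 1 (0.0753) or 3 (0.0995). Hoxb4 (log2 0.11, SE 0.1, adjusted p = 0.4), Hoxb2 (0.42), Hoxb5 (-0.11) and Hoxb8 (-0.32) did not pass, and neither did Hoxa7 (0.08). Of all genes, 30.8% were lower and 29.6% higher. The median log2 difference was -0.52 over the Hox genes and -0.01 over all genes. A 2-fold threshold left 5 genes (Hoxa3, Hoxa5, Hoxa9, Hoxb3 and Hoxb6), against 9.35% of all genes. In 8 Hox genes all 5-FU libraries lay below all untreated libraries and in 1, Hoxb2, above, against 33.8% and 32.8% of all genes.

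**Figure D3:**
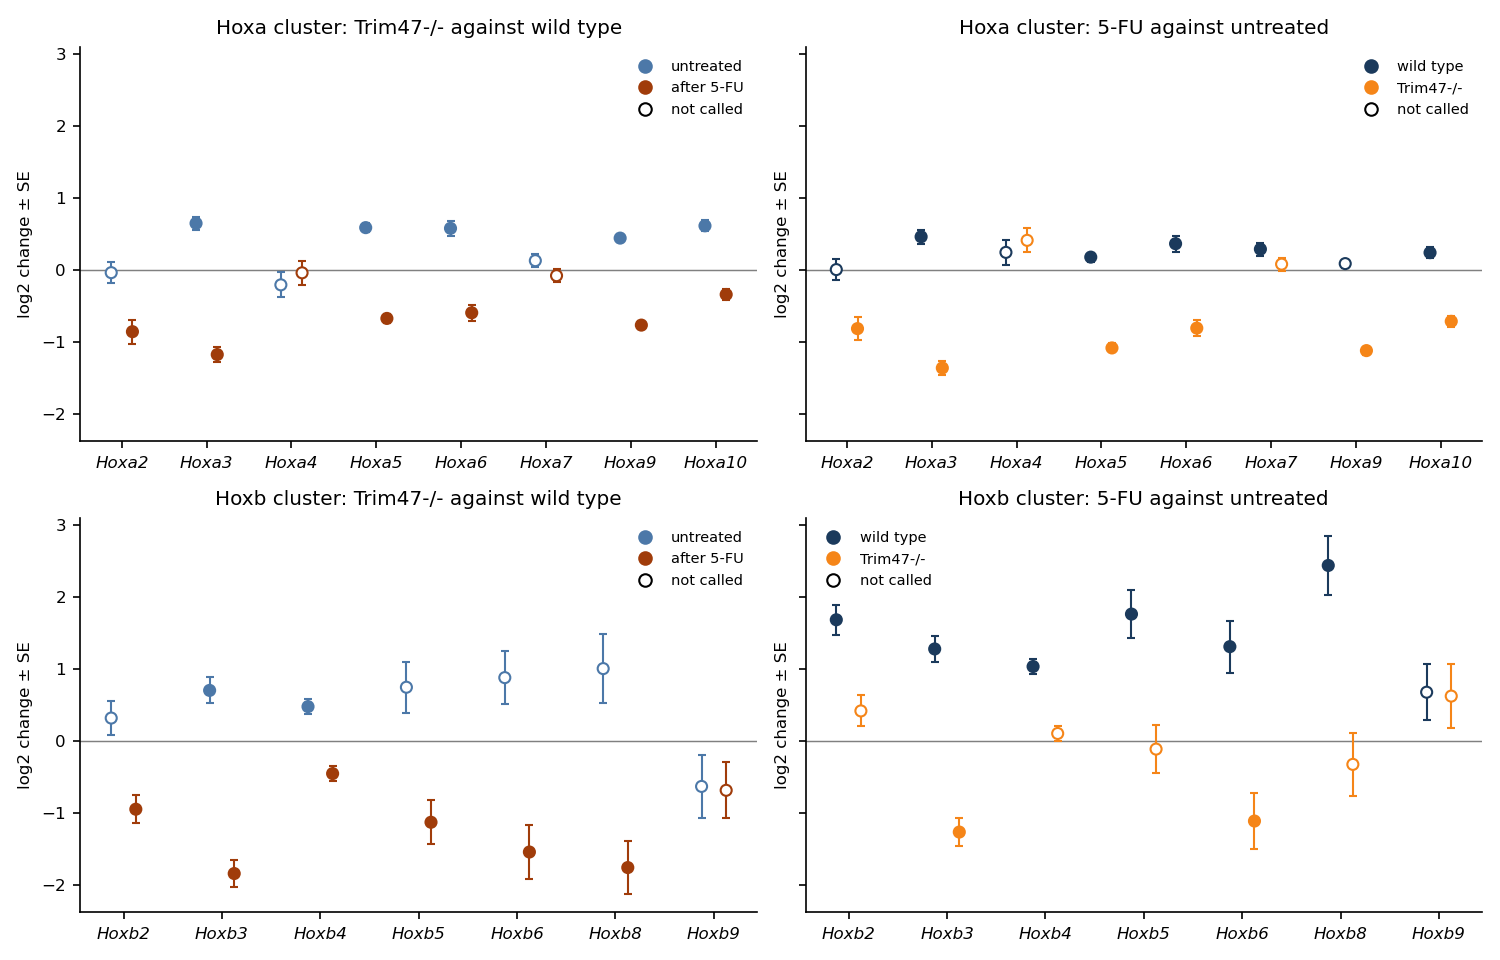
Log2 change with its standard error (y axis) of tested Hox genes (x axis, in cluster order), for Trim47-/- against wild type (left) and 5-FU against untreated (right), with Hoxa above and Hoxb below; filled points passed at an adjusted p under 0.05. The untreated and 5-FU genotype differences both passed, on opposite sides of 0, for Hoxa3, Hoxa5, Hoxa6, Hoxa9, Hoxa10, Hoxb3 and Hoxb4, and Hoxa7 stays within 0.13 of 0 in both. Those of Hoxb2, Hoxb5, Hoxb6 and Hoxb8 also lie on opposite sides but passed only after 5-FU. The filter favoured the differences of Hoxb6 and Hoxb8 from wild type after 5-FU.

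No Hox gene passed in the direction opposite to the counts above at an unadjusted p under 0.05 either (0 of 16 in each of these 4 comparisons), and none did in DESeq2's test. The 4 comparisons share groups, so their calls are not independent of each other. Side by side, Hoxa3, Hoxa5, Hoxa6, Hoxa10 and Hoxb3 passed in all 4, being higher in untreated Trim47-/-, lower in Trim47-/- after 5-FU, higher with 5-FU in wild type and lower with 5-FU in Trim47-/-. Hoxa9 had the same directions without the wild-type rise, and Hoxb4 without the fall in Trim47-/-. Hoxb2, Hoxb5 and Hoxb8 passed only for the wild-type rise and for the genotype difference after 5-FU. Hoxa7 passed only for the wild-type rise, and Hoxa4 and Hoxb9 in none.

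The response to 5-FU was tested for a difference between genotypes as an interaction, the change in Trim47-/- minus the change in wild type. It was negative in 10 of the 12 better expressed Hox genes, and in 12 of all 16 tested, and positive in none (0 also at an unadjusted p under 0.05 and in DESeq2's test), against 28.5% negative and 26.4% positive among all genes. These were 6 Hoxa genes (Hoxa2, Hoxa3, Hoxa5, Hoxa6, Hoxa9 and Hoxa10) and 6 Hoxb genes (Hoxb2, Hoxb3, Hoxb4, Hoxb5, Hoxb6 and Hoxb8). Of the better expressed genes Hoxb3 had the largest value, at log2 -2.54 (SE 0.262, adjusted p = 8.29e-06), followed by Hoxb5 at -1.87 (SE 0.469, adjusted p = 0.00535) and Hoxa3 at -1.82 (SE 0.14, adjusted p = 7.44e-07). Hoxb8 stood at -2.76 and Hoxb6 at -2.42, values that the filter favoured. Hoxa7 stood at -0.21 (SE 0.126, adjusted p = 0.187). It passed without Trim47-/- 5-FU replicate 1, the library in which it was highest of its group (log2 -0.31, adjusted p = 0.0266). At 2-fold or more 7 of the 12 were negative, against 9.69% of all genes. The median was -1.19 over the 12 and -0.03 over all genes.

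Ratios of counts taken within a library do not depend on the scaling between libraries, and they showed that neighbours moved by unequal amounts. The ratio of Hoxa9 to Hoxa7 reads was 1.8, 1.92 and 2.01 in untreated wild type, 2.35, 2.33 and 2.43 in untreated Trim47-/-, 1.81, 1.5 and 1.69 in wild type after 5-FU and 0.939, 1.12 and 1.06 in Trim47-/- after 5-FU. The last group lay below all others and untreated Trim47-/- above all others. The ratio of Hoxb3 to Hoxb4 was 0.732, 1.01 and 0.958 in untreated wild type, 1.03, 0.946 and 1.22 in untreated Trim47-/-, 1.1, 0.906 and 1.23 in wild type after 5-FU and 0.471, 0.526 and 0.245 in Trim47-/- after 5-FU. Only the last group lay apart. The ratio of Hoxb4 to Hoxa9 was 0.0768, 0.0806 and 0.0801, then 0.0887, 0.0883 and 0.0678, in the untreated wild-type and Trim47-/- libraries. It was 0.136, 0.173 and 0.15 in wild type and 0.182, 0.176 and 0.212 in Trim47-/- after 5-FU. Both 5-FU groups lay above both untreated groups, so this ratio rose with the drug in both genotypes, but through different genes. In wild type Hoxb4 rose (log2 1.035) and Hoxa9 did not pass (0.09). In Trim47-/- Hoxa9 fell (log2 -1.12) and Hoxb4 did not pass (0.11).

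**Figure D4:**
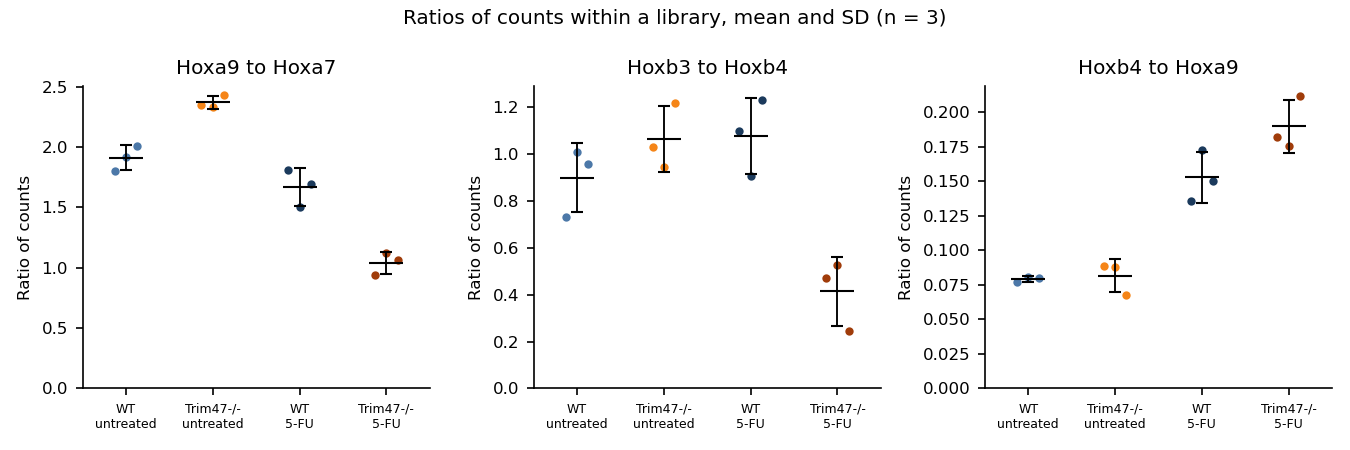
Ratio of read counts of 2 Hox genes within each library (y axis, from 0), for 3 pairs in the 4 groups (points are libraries, with the mean and SD, n = 3). Hoxa9 to Hoxa7 averaged 2.37 in untreated Trim47-/- and 1.04 in Trim47-/- after 5-FU, and Hoxb4 to Hoxa9 averaged 0.0792 and 0.0816 untreated against 0.153 and 0.19 after 5-FU.

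By position within the Hoxa cluster, the anterior, central and posterior genes kept 0.534, 0.82 and 0.621 of the wild-type level in Trim47-/- after 5-FU. The central value holds Hoxa7, and the Hoxa sum without Hoxa7 and Hoxa9 was at 0.642. In the Hoxb cluster the anterior genes, Hoxb1 to Hoxb4, were at 0.5 and the central genes at 0.411 in the same comparison. With 5-FU in wild type, the anterior and central Hoxb sums rose to 2.39 and 3.58 times, and the anterior, central and posterior Hoxa sums to 1.24, 1.2 and 1.08 times.

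Genes that lie between the Hox genes or beside the clusters were looked at in the same way. Of 18 other genes of the table within the cluster spans, 4 were tested, and the microRNA genes Mir10a and Mir196b and the noncoding gene Hotairm1 were under 1 CPM in every library. Hoxb3os, the antisense partner of Hoxb3, rose with 5-FU in wild type (log2 1.87, SE 0.28, adjusted p = 0.000179) and in Trim47-/- (log2 0.96, SE 0.277, adjusted p = 0.0104). In Trim47-/- after 5-FU it thus rose where Hoxb3 fell. Hoxb5os rose in wild type (log2 1.29, SE 0.224, adjusted p = 0.000529) and was lower in Trim47-/- after 5-FU (log2 -0.89, SE 0.214, adjusted p = 0.00422), as was Hoxb3os (log2 -0.67, adjusted p = 0.0356). None of the 4 passed between untreated genotypes (adjusted p = 0.437 to 0.77). Of 12 tested flanking genes outside the clusters, 1 was higher and 1 lower between untreated genotypes, against 17.6% and 15.4% of all genes. Between genotypes after 5-FU 5 of the 12 were lower, against 27.6% of all genes, led by Calcoco1, a neighbour of Hoxc, at log2 -0.91 (SE 0.0489, adjusted p = 4.44e-08). With 5-FU in wild type 7 of the 12 rose and 1 fell, against 25.2% and 25.4% of all genes, and in Trim47-/- 2 rose and 3 fell, against 29.6% and 30.8%.

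The TALE cofactors that bind DNA with HOX proteins showed no common direction between untreated genotypes, with 2 of 9 tested members higher and 2 lower (median log2 -0.03), close to the shares of all genes (17.6% and 15.4%). Meis1, the main partner of Hoxa9 in blood, was at 164 ± 5.93 CPM in untreated wild type, 168 ± 5.79 in untreated Trim47-/-, 137 ± 1.47 in wild type after 5-FU and 94.9 ± 3.14 in Trim47-/- after 5-FU (SD, n = 3 each). After 5-FU it was lower in Trim47-/- (log2 -0.53, SE 0.0362, adjusted p = 3.10e-07), as were Pbx4 (-0.48) and Pbx3 (-0.62). In that comparison 4 of 9 were lower and 2 higher (median log2 -0.12), against 27.6% and 27.2% of all genes. Genes reported to respond to HOXA9 or MEIS1 in blood cells split as well, with 8 of 15 lower and 2 higher in Trim47-/- after 5-FU (median log2 -0.30), against the same 27.6% and 27.2% of all genes. Sox4 was lower (log2 -0.85), as were Msi2 (-0.55) and Myb (-0.44), while Cybb, a phagocyte oxidase gene repressed by HOXA10, was higher (log2 0.97). Between untreated genotypes 4 of the 15 were higher and 6 lower, against 17.6% and 15.4% of all genes.

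Activators of the Hox loci were more often lower than higher in untreated Trim47-/- and more often higher after 5-FU. Between untreated genotypes, when 7 Hox genes were higher, 11 of 23 tested activators were lower and 4 higher (median log2 -0.16), against 15.4% and 17.6% of all genes. Aff4 and Dot1l, which act in transcript elongation and histone H3K79 methylation, were lower at log2 -0.62 and -0.97, and so were Nsd1 (-0.36) and Nup98 (-0.41). The 4 higher ones were Rbbp5 (0.46), Psip1 (0.24), Hdac3 (0.16) and Wdr5 (0.10). After 5-FU, when 10 of the 12 better expressed Hox genes were lower in Trim47-/-, 13 of the 23 were higher and 5 lower (median log2 0.19), against 27.2% and 27.6% of all genes. Nup98 (0.62), Aff4 (0.52) and Brpf1 (0.59) were higher and Mllt3 was lower (-0.71). Rbbp5 (-0.41) and Psip1 (-0.11) were lower here too, unlike in the untreated state, while Wdr5 was again higher (0.19). Kmt2a, which encodes MLL, was among the lower members in both states (log2 -0.45 untreated and -0.40 after 5-FU). Cdx1, Cdx2 and Men1 were under 1 CPM in every library. Of 25 Polycomb genes, 6 were higher and 4 lower between untreated genotypes (median log2 0.08) and 9 higher and 6 lower after 5-FU (median log2 0.04), near the shares of all genes. Within the list members moved in opposite ways. Cbx7 and Cbx2, chromodomain subunits of Polycomb repressive complex 1, were higher in untreated Trim47-/- (log2 0.41 and 0.58) and lower after 5-FU (-0.83 and -0.78), as were Cbx6 and Ezh1. Asxl1 and Jarid2 were lower untreated (log2 -0.18 and -0.25) and higher after 5-FU (0.32 each), as were Eed and Phc2. Of 9 boundary and H3K27 demethylase genes, 5 were higher and 2 lower untreated, and 3 were higher and 3 lower after 5-FU, the latter near the shares of all genes. Kdm6b, the stress-induced H3K27 demethylase, was lower in untreated Trim47-/- (log2 -0.31) and higher after 5-FU (0.71).

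Markers of stem cells and of maturing cells differed between the groups as well. Of 11 LT-HSC markers, 6 were higher in untreated Trim47-/- (median log2 0.30), and 10 were lower in Trim47-/- after 5-FU (median log2 -1.09), where Fgd5 was at -1.62 and Slamf1 at -1.52. Of all genes, 17.6% were higher untreated, and 27.6% were lower and 27.2% higher after 5-FU. The 11th, Ly6a, stood at 0.31. The sum of 10 neutrophil markers, all detected, was 2970 to 3110 CPM in untreated wild type, 2930 to 2970 in untreated Trim47-/-, 3610 to 3690 in wild type after 5-FU and 5850 to 6250 in Trim47-/- after 5-FU, and all 10 were higher in Trim47-/- after 5-FU. Mpo was the largest part of that sum, with means of 1900, 1730, 1830 and 3290 CPM in that order. Between untreated genotypes 6 of the 10 were higher in Trim47-/- and 2 lower, against 17.6% and 15.4% of all genes. The sum of 10 monocyte and macrophage markers was 538 to 556, 382 to 404, 507 to 521 and 880 to 885 CPM in the same order of groups, and 8 of 10 were higher in Trim47-/- after 5-FU. By these sums, the group with the least Hoxa RNA had the least LT-HSC marker RNA and the most neutrophil and monocyte marker RNA. The sums of dendritic, B cell and stromal markers given below were lowest in that group too. Hoxb RNA differed from this order, with its lowest mean in untreated wild type (13.3 CPM, against 16.2 CPM in Trim47-/- after 5-FU). Kit was a large part of the LT-HSC sum, with means of 466, 495, 459 and 302 CPM in that order of groups. Ly6a had its highest mean in Trim47-/- after 5-FU (87.4 CPM). Slamf1 (5.67 CPM) and Ctnnal1 (12.7 CPM) lay above both of their untreated means there, while the remaining LT-HSC markers had their lowest means. In the same order, erythroid markers summed to 329 to 345, 458 to 480, 626 to 667 and 466 to 481 CPM, and megakaryocyte markers to 120 to 123, 94.6 to 98.9, 266 to 269 and 199 to 204 CPM. Dendritic cell markers summed to 1090 to 1110, 1220 to 1340, 661 to 677 and 571 to 578 CPM, and B cell markers to 32.3 to 34.3, 32.7 to 35.6, 23.6 to 26.6 and 19.1 to 23 CPM. Most of the dendritic sum was Flt3, also listed among the genes reported to respond to HOXA9 or MEIS1, with means of 711, 915, 546 and 445 CPM. Between untreated genotypes Flt3 was the 1 of 7 tested dendritic cell markers that was higher, and 2 were lower, against 17.6% and 15.4% of all genes. T and NK cell markers summed to 125 to 127, 137 to 140, 159 to 162 and 146 to 150 CPM, with Cd3d, Cd3e, Cd3g, Cd8a and Ncr1 under 1 CPM in every library. Endothelial markers summed to 6.36 to 8.09, 9.24 to 9.53, 9.98 to 11.7 and 5.85 to 8.48 CPM. Stromal markers, whose cells also use Hox genes, summed to 74.6 to 79.5, 96.1 to 102, 67.6 to 73.2 and 51.7 to 56 CPM, most of it Pdgfrb, while Lepr, Prrx1, Pdgfra, Col3a1, Dcn and Lum were under 1 CPM in every library. No marker was at 0 in all libraries. The part of cell composition in the Hox results was not tested.

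**Figure D5:**
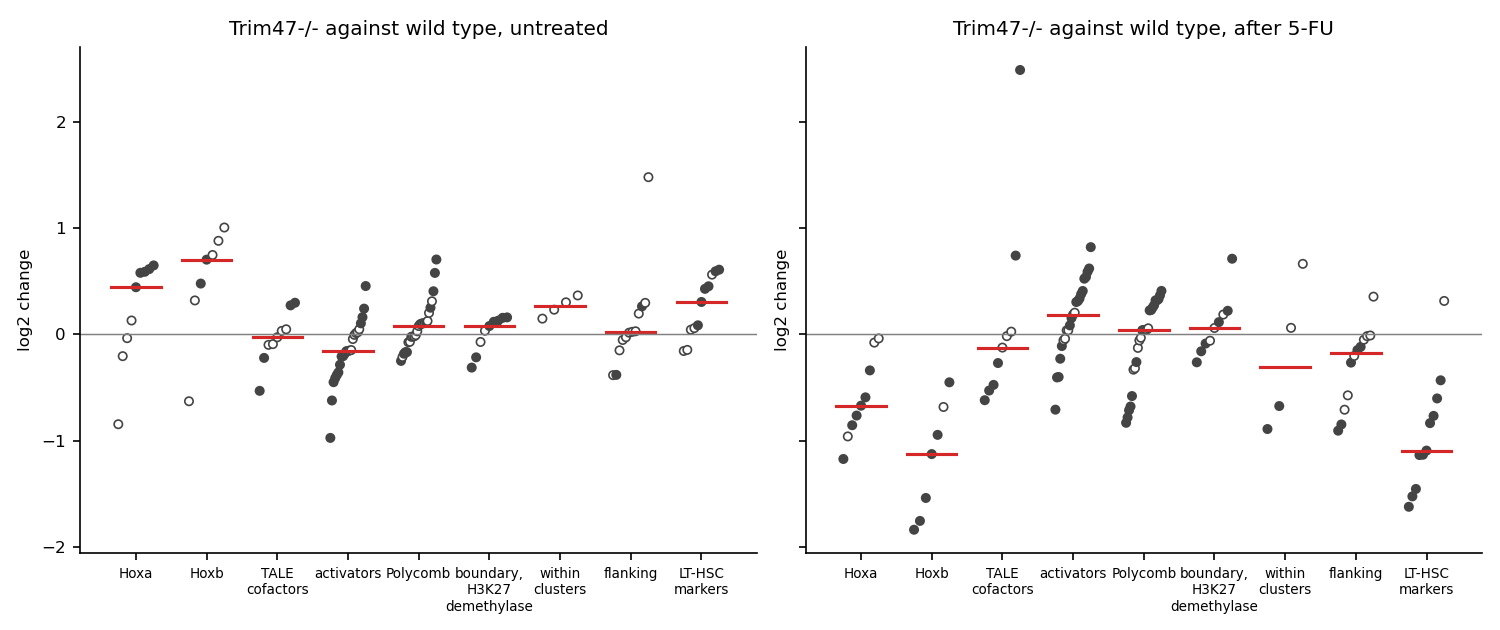
Log2 difference between Trim47-/- and wild type (y axis) of each tested gene (points, filled where the adjusted p was under 0.05) by list, with the list's median as a red line, untreated (left) and after 5-FU (right). The medians of Hoxa and Hoxb lie above 0 untreated (0.44 and 0.70) and below 0 after 5-FU (-0.67 and -1.13), as do those of the LT-HSC markers (0.30 and -1.09). Over the 4 better expressed Hoxb genes the median after 5-FU was -1.04, and the activators lie at -0.16 and 0.19.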

How the data were processed

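RNA of 12 libraries, 3 in each of 4 groups taken from the sample titles, was measured. Libraries were paired-end and made from polyadenylated RNA with a kit that marks strand, per the labels' protocols. The deposited table gives a raw count per gene and library and, per the file headers, FPKM values. CASAVA 1.8, HISAT2, StringTie and edgeR, with the build GRCm38, are named in the submitters' processing notes with no stated role. How reads were counted, whether by strand and on which annotation release is not given in the sources used here.

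Counts were tested with edgeR 4.0.16 (R 4.3.3): TMM scaling, the default filter on low counts (16319 genes kept), 1 mean per group over all 12 libraries, the quasi-likelihood test, and Benjamini-Hochberg adjustment over all genes tested, with a call at an adjusted p under 0.05. The procedure was tested on simulated counts. CPM are counts over TMM-adjusted library sizes. FPKM served only to order genes. Coordinates and exon overlaps are from GENCODE M21, and all 30 Hox genes had the same coordinates there. Upstream windows are from RefSeq, and 10 windows matched tested Hox genes. Alternatives were DESeq2 1.42.0, its size factors, total counts, no filter, a replicate block, 6 libraries only, stricter thresholds and each library left out. A restriction to members with at least 1 CPM was added after seeing the data.

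Some values of single genes are not reported here, though counts, sums and medians include all tested members. Values by library are given for members with a mean of at least 1 CPM that passed in a pairwise comparison, and from each other list up to 4 members with the smallest p in a comparison are named, along with members singled out after their values were seen. The members, lists and rules were chosen with earlier results of these data known. The labels do not say whether replicate numbers pair the libraries, and the main test did not pair them. Correlations of deviations from the group means, which cannot settle this, ran from -0.212 to 0.207 over 18 pairs with the same number. Tables and plots were made with pandas 2.3.3, numpy 2.4.6 and matplotlib 3.10.9 under Python 3.11.15.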

Additional observations from a re-analysis of the deposited data

Results flagged for a closer look

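In 12 of 16 tested Hox genes, and in 10 of the 12 better expressed ones, the response to 5-FU differed between the genotypes. The calls are from the interaction term of edgeR's quasi-likelihood test, adjusted by Benjamini-Hochberg over all genes. All were negative, against 28.5% negative and 26.4% positive among all genes. The values are the log2 change with 5-FU in Trim47-/- minus that in wild type. In the Hoxa cluster they were -0.82 for Hoxa2, -1.82 for Hoxa3, -1.26 for Hoxa5, -1.17 for Hoxa6, -1.21 for Hoxa9 and -0.95 for Hoxa10. In the Hoxb cluster they were -1.27 for Hoxb2, -2.54 for Hoxb3, -0.93 for Hoxb4, -1.87 for Hoxb5, -2.42 for Hoxb6 and -2.76 for Hoxb8. Hoxb6 and Hoxb8 passed the filter on low counts only through wild type after 5-FU, which favours negative values. The least of these by adjusted p was Hoxa2 (SE 0.223, adjusted p = 0.00859) and the strongest Hoxa9 (SE 0.0786, adjusted p = 1.99e-07). All 3 libraries of each group enter each value, and the groups differ in total counts and in marker genes of other cells as described above.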

How the results depend on the processing

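No Hox gene that passed reversed its direction under any alternative run. Over the scalings, the DESeq2 test, no filter and only the 6 libraries compared, 7 Hox genes were higher in untreated Trim47-/- and 12 lower in Trim47-/- after 5-FU in every case, while 8 to 12 were higher with 5-FU in wild type and 7 to 8 lower with 5-FU in Trim47-/-. At an adjusted p under 0.01 the rises with 5-FU in wild type fell from 11 to 6. With a 2-fold threshold added, the untreated count went from 7 to 0, the count lower in Trim47-/- after 5-FU from 12 to 5, the wild-type rises from 11 to 6 and the falls in Trim47-/- from 8 to 5. These follow from the stricter thresholds. With each library left out in turn, the counts ran from 7 to 8, 12 to 12, 9 to 10 and 7 to 8 in that order, and from 12 to 13 for the interaction. Without untreated wild-type replicate 1, Hoxb2 passed between untreated genotypes (adjusted p = 0.03), and so did Hoxb6 without untreated Trim47-/- replicate 2 (0.0364). With total counts as the scaling Hoxa9 also rose with 5-FU in wild type (log2 0.19, adjusted p = 0.0125), and the cause of these gains was not tested. That scaling moved the median log2 of all genes from 0.01 to 0.11 there and from -0.03 to -0.12 for the interaction. It turned the split of all genes with 5-FU in wild type from 4110 higher and 4150 lower to 5762 and 3165. With DESeq2 size factors the untreated split of all genes was 2567 higher and 2717 lower, against 2873 and 2519. Over the 12 members with a mean of at least 1 CPM, a restriction chosen after seeing the data, the 5 counts were 7, 10, 9, 7 and 10. With the replicate number as a block the Hox counts were 7, 12, 11, 8 and 12, and no call of a Hox gene changed. Same-numbered libraries correlated at a median of 0.0519 and others at -0.0363. Such weak correlations cannot decide whether the numbers pair libraries, and the labels do not say. Depth limits the Hoxc and Hoxd genes and Hoxb6, Hoxb8 and Hoxb9, with at most 24 reads in a library.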
